A study of Mus musculus with 2 samples.

Results

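Scn4b, Hcn2, Hcn4, Fgf12, Fgf13 and Fgf14 are 6 of the 27998 genes counted in cells of the mouse right ventricle. They were taken by symbol, and all 6 were found in the count table. Scn4b encodes a beta subunit of the voltage-gated sodium channel, Hcn2 and Hcn4 encode pore subunits of the pacemaker current, and Fgf12, Fgf13 and Fgf14 encode intracellular FGF homologous factors. Levels are set side by side in atrial-type cardiomyocytes, ventricular-type cardiomyocytes and non-myocytes, and in cardiomyocytes with a GFP transcript and depth-matched cardiomyocytes without one, in each library. Both libraries, RV_1 and RV_2 (library 1 and library 2), came from C57/BL6J pups that carried p300 flox/flox and CBP flox/flox together with Trap flox/flox. The pups had been injected with AAV9, a virus that delivers genes to the heart, on postnatal day 1 to knock out p300/CBP, and the right ventricle was taken on postnatal day 21. There is no control library, so nothing here compares knockout with control. The labels do not give the promoter behind the deleting enzyme, the source of the GFP sequence, what the Trap allele does, or how many animals went into a library.

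The fast upstroke of the cardiac action potential is carried by a voltage-gated sodium channel. Beta subunits such as Scn4b's product bind the pore of this channel and shift its gating, and FGF homologous factors, which are not secreted and act on no FGF receptor, bind the tail of the pore inside the cell and slow its inactivation. HCN channels open on hyperpolarization and pass the current that drives pacemaking. Hcn4 is the main form of the sinoatrial node, and Hcn2 is also found in working heart muscle.

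The genes differ in size and place. On GRCm38, Fgf13 spans 505927 bases of the minus strand (chrX:59062145-59568071), Fgf12 592971 bases of the minus strand (chr16:28160098-28753068) and Fgf14 699221 bases of the minus strand (chr14:123977907-124677127). Hcn2 spans 19475 bases (chr10:79716634-79736108), Hcn4 39764 bases (chr9:58823412-58863175) and Scn4b 15758 bases (chr9:45138395-45154152), all on the plus strand. The handling of intronic reads was not stated in these sources, and so levels are compared between cells for each gene and not between genes. The 250 bases before the annotated start are shown for Fgf13, Fgf12 and the 2 HCN genes. Fgf13 was lower and Fgf12 higher in atrial-type than in ventricular-type cells. Fgf14, which was also higher there in CPM, is not shown, nor is Scn4b. All 6 genes matched an entry, and the sequences are RefSeq's on GRCm38.p6, each on the strand of its gene. The spans above are GENCODE's and the starts are RefSeq's, so a window need not adjoin the printed span, as for Fgf13 and Hcn4. Capitals mark matches to a loose form of the MEF2 motif or to a T-box motif.
Fgf13, chrX:59585573-59585822, minus strand: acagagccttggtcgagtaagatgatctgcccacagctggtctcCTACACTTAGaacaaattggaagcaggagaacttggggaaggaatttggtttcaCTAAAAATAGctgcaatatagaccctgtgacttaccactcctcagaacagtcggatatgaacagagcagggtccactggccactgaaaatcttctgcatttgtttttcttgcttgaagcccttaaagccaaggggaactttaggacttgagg
Fgf12, chr16:28753244-28753493, minus strand: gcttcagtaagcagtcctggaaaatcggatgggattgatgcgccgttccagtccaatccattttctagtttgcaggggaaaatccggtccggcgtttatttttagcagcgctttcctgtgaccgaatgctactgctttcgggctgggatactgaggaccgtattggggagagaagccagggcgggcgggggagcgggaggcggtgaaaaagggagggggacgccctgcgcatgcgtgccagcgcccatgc
Hcn2, chr10:79716384-79716633, plus strand: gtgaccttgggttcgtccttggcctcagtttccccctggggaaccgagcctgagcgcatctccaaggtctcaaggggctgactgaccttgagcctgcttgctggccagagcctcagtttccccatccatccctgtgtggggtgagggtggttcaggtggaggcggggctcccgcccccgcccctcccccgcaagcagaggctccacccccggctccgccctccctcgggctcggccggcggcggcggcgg
Hcn4, chr9:58822699-58822948, plus strand: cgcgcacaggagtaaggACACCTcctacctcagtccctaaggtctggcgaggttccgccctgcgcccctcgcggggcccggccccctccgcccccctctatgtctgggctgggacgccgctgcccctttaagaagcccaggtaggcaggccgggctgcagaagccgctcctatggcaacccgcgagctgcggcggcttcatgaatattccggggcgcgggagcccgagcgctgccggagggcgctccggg

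Both strands of all 6 windows were searched for 6 motifs, whose matches could overlap. The MEF2 motif was searched in a form loose only in its middle, CTA and TAG with any 4 bases between them. This form was present in 3.22% of 32536 mouse windows of this length. It matched the Fgf13 window at -206 to -197 and at -152 to -143 from the start. The middle bases were CACT in the first match and AAAA in the second. A stricter form with only A or T in the middle was not searched. Forms with other end bases were not searched either, so the run TTATTTTTAG in the Fgf12 window is not marked. The T-box motif AGGTGT, present in 11.9% of windows, matched the Hcn4 window on its reverse strand at -233 to -228. The core of the cAMP response element, TGACG (17.9% of windows), the GATA motif AGATAA (9.97%), the NKX motif TNAAGTG (10.0%) and the TATA box TATAAA (12.3%) matched none of the 6 windows. The shown windows held 45.6% G and C for Fgf13, 58.4% for Fgf12, 70.4% for Hcn2 and 71.2% for Hcn4, against a median of 52.4% over all windows. A match is a run of letters and not a measured binding site. Fgf12 and Fgf13 have 4 annotated starts each, of which the most upstream is shown, and 3′ counts do not tell which start a cell used.

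Sequencing gave 22183 barcodes, whose median depth was 3586 UMIs in library 1 and 3945 in library 2. Of these, 20656 barcodes were kept and clustered, and clusters were named from marker genes. Cardiomyocytes made up 64.5% of kept barcodes in library 1 and 26.0% in library 2, although both protocols name an enrichment of CD45+ cells. Macrophage-like and lymphocyte-like cells made up 2.67% and 7.07%. Library 1 held 82 atrial-type and 7632 ventricular-type cardiomyocytes, and library 2 held 7 and 2252. Most ventricular-type cells of library 1 came from other clusters than those of library 2. The tissue label is right ventricle, yet the atrial-type cells carried atrial markers: Myl7, the atrial myosin light chain, stood at 2412 CPM (counts per 1000000 UMIs) in library 1 and 923 in library 2, against 3.85 and 0.675 in ventricular-type cells. Irx4, a ventricular transcription factor, had no count in them, against 27.2 and 21.6 CPM. The other ventricular markers were not absent. Myl2 stood at 532 and 79.1 CPM, against 1079 and 856, and Myh7 at 678 and 343 CPM, against 754 and 443. Hey2 stood at 6.85 CPM in library 1 and had no count in library 2, against 15.1 and 13.1. Myl3 was higher than in ventricular-type cells in library 1 (691 against 469 CPM) and lower in library 2 (185 against 394). Ep300 and Crebbp, the targeted genes, stood at 110.6 and 116.9 CPM and at 382.4 and 464.1 CPM in ventricular-type cells, against 148.9 and 167.7 CPM and 480.5 and 547.9 CPM over all named non-myocytes. Against the mean of the non-myocyte classes after TMM scaling, Crebbp was however called higher in ventricular-type cells, by 0.38 on the log2 scale (edgeR adjusted p = 0.00972), so its direction depends on the scaling. Counts of 3′ tags outside a deleted exon check nothing about the deletion. Across libraries 17 barcodes were shared, and 14 of these were among the kept barcodes.

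Fgf13, known as the main FGF homologous factor of the mouse ventricle, was highest in ventricular-type cells. They had 5080 CPM (library 1) and 6175 CPM (library 2; mean 5627 ± 775, SD, n = 2 libraries), against 906 and 364 CPM over all named non-myocytes (mean 635 ± 383). Atrial-type cells stood between them, at 2476 and 3797 CPM. A UMI of Fgf13 was found in 99.5% and 99.6% of ventricular-type cells. When each cell was thinned to 1000 UMIs the shares were 96.3% and 97.4%, against 56.8% and 23.1% of named non-myocytes. Deeper ventricular-type cells had somewhat more of it, with 4322, 4794 and 5433 CPM from the low to the high depth band in library 1 and 5576, 6088 and 6421 CPM in library 2.

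Ventricular-type cells were tested against the unweighted mean of the 7 non-myocyte classes that reached 50 cells in each library. Fgf13 was higher by 3.97 on the log2 scale (SE 0.22, edgeR adjusted p = 2.48e-10), with values of 3.03 in library 1 and 4.68 in library 2. Fgf14 was higher by 3.44 (SE 0.29, adjusted p = 1.81e-08), with 2.50 in library 1 and 4.21 in library 2, and Hcn2 by 3.32 (SE 0.30, adjusted p = 4.82e-08). Fgf12 was lower by a log2 value of -1.66 (SE 0.47, adjusted p = 0.00499). Scn4b and Hcn4 had too few counts for the filter and were not tested. So 3 of the 4 members tested were higher and 1 was lower. Of all 13773 genes tested, 35.7% were called higher and 30.3% lower, so a call by itself is common here. The 2 libraries may be technical repeats, and p-values measure only the spread between them. In sums over cells, fewer RNA copies per cell and fewer cells with the gene cannot be told apart.

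**Figure D1:**
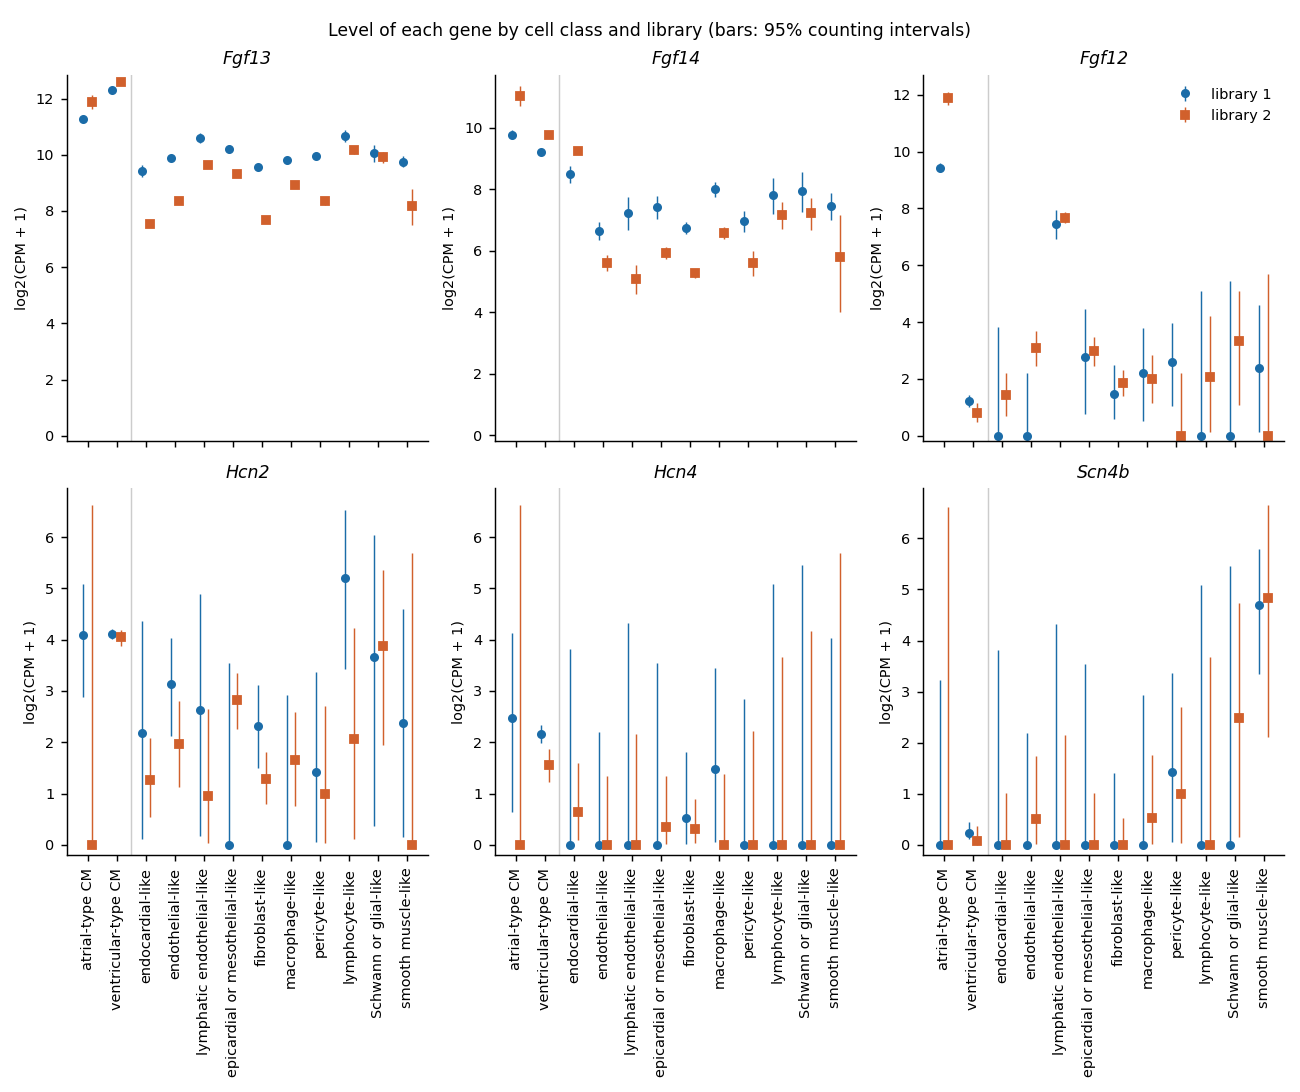
Level of each gene as log2(CPM + 1) in atrial-type cardiomyocytes, ventricular-type cardiomyocytes and 10 non-myocyte classes, 1 point per library with its 95% Poisson counting interval. Fgf13 is highest in ventricular-type cells, Fgf12 in atrial-type and lymphatic endothelial-like cells, and Scn4b in smooth muscle-like cells.

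Droplet libraries carry free RNA, and so the level of each gene in non-myocytes was set beside the summed level of 12 cardiomyocyte markers there, both as a percent of the ventricular-type level. In fibroblast-like cells Fgf13 stood at 14.98% of its ventricular-type level in library 1 and 3.31% in library 2, where the markers stood at 12.8% and 3.12%. In endocardial-like cells it stood at 13.5% and 3.01%, beside 11.7% and 2.86% for the markers. Fgf13 in both classes thus sat near the marker share, and the larger non-myocyte level of library 1 went with more marker RNA. Over the 20 class and library sums, the 95% counting interval of Fgf13 lay above the marker share in 9, held it in 5 and lay below it in 6. Lymphatic endothelial-like cells were the widest case, at 30.5% and 12.96% beside 25.8% and 3.53% for the markers. The part of free RNA in any single value was not tested.

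**Figure D2:**
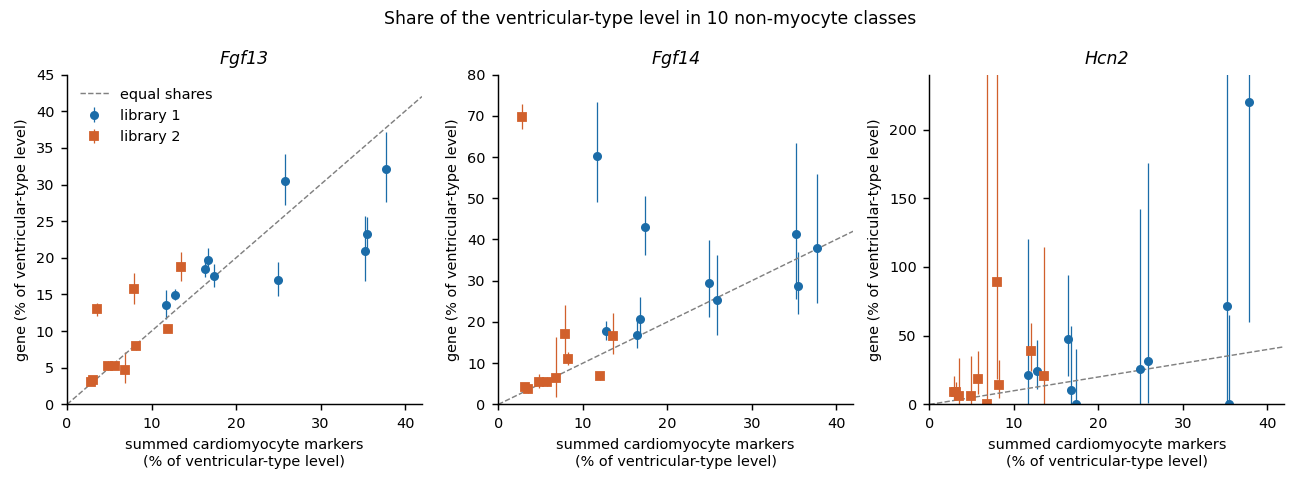
Level of Fgf13, Fgf14 and Hcn2 in 10 non-myocyte classes against the summed level of 12 cardiomyocyte markers, both as a percent of the ventricular-type level of the same library. Bars are 95% counting intervals, some of which run past the axis for Hcn2, and the dashed line marks equal shares. The interval of Fgf13 lies above the line in 9 of 20 sums, holds it in 5 and lies below it in 6. Fgf14 in endocardial-like cells lies at 60.3% and 69.8%, far above the line.

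Fgf14, the homologous factor best known from neurons, was shared by cardiomyocytes and endocardial-like cells. It stood at 869.5 and 2110 CPM in atrial-type cells, 591 and 860 CPM in ventricular-type cells and 146 and 138 CPM over all named non-myocytes. Endocardial-like cells, which line the chambers, had 356 and 601 CPM, from 101 and 2157 counts. That is 60.3% and 69.8% of the ventricular-type level, beside marker shares of 11.7% and 2.86%, so the endocardial-like level was above the marker share in both libraries. The difference between ventricular-type and endocardial-like cells, 1.05 on the log2 scale (SE 0.46, edgeR adjusted p = 0.0633), did not pass the threshold. Endocardial-like cells were higher than macrophage-like cells, the next class in the order of means, by 1.97 (SE 0.50, adjusted p = 0.00601), in a comparison where 30.3% of genes were called in either direction. Over all 20 sums, the endocardial-like ones included, the interval of Fgf14 held the marker share in 12, lay above it in 7 and below it in 1. Macrophage-like cells were above it in both libraries, at 43.0% and 11.0% beside 17.4% and 8.22%. Fibroblast-like cells were above it in both as well, at 17.9% and 4.34% beside 12.8% and 3.12%. Schwann or glial-like cells were above it in library 2, at 17.1% beside 7.96%.

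A UMI of Fgf14 was found in 61.2% and 64.1% of ventricular-type cells, against nearly all of them for Fgf13. These cells held 25972 and 16562 counts of Fgf14 in 7632 and 2252 cells. At 1000 UMIs per cell the shares were 32.5% and 38.6%, against 10.8% and 7.83% of named non-myocytes. Fgf14 overlaps 2 antisense genes of the count table, of which Gm28932 had no count in cardiomyocytes and 1700024B18Rik had 67 and 15 counts in ventricular-type cells. The use of strand in counting was not stated in these sources.

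Fgf12, the main FGF homologous factor of the human ventricle, was high in atrial-type cells and nearly absent from ventricular-type cells. Atrial-type cells gave 303 counts in 82 cells of library 1 and 142 counts in 7 cells of library 2. These are 691 and 3745 CPM, against 1.32 and 0.727 CPM in ventricular-type cells, which gave 58 and 14 counts. A UMI was found in 67.1% and 85.7% of atrial-type cells, against 0.694% and 0.622% of ventricular-type cells. The atrial-type over ventricular-type ratio was 524 in library 1 (95% counting interval 394 to 706) and 5148 in library 2 (2969 to 9657). With 7 atrial-type cells in library 2, no test was made between the cardiomyocyte types, and the intervals cover counting error alone. On the scale of log2(CPM + 10), used to rank genes, the differences were 5.95 and 8.45, the fourth largest by rank of the genes at least 2-fold higher in both libraries. Of 9613 genes with a mean of at least 10 CPM in either type, 6.38% were at least 2-fold higher in atrial-type cells in both libraries and 1.76% at least 2-fold lower. A gene could pass through atrial-type cells alone, as Fgf12 did, and those of library 2 held only 37921 UMIs. The rank and both shares thus depend on this filter and support nothing further.

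Fgf13, Fgf14 and Hcn2 did not pass that 2-fold limit in both libraries, and Scn4b and Hcn4 were under the level needed for it. Fgf13 in atrial-type cells stood at 0.487 of its ventricular-type level in library 1 (interval 0.459 to 0.517) and 0.615 in library 2 (0.519 to 0.724). Fgf14 stood at 1.47 times (1.33 to 1.63) and 2.45 times (1.94 to 3.05). Among the FGF homologous factors, atrial-type cells thus had less Fgf13 and more Fgf12 and Fgf14 in CPM than ventricular-type cells in both libraries. Scaling by TMM, which equalises the bulk of genes, put the mean Fgf14 difference at 0.20 on the log2 scale, against 1.04 in CPM, and the mean Fgf13 difference at -1.63, against -0.84 in CPM.

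Outside the atrial-type cells, Fgf12 was found in lymphatic endothelial-like cells, the vessel-lining cells of lymphatics. They had 175 and 203 CPM, from 34 and 216 counts, and a UMI in 28.0% and 36.1% of cells. Every other non-myocyte class lay at or under 9.19 CPM in both libraries. Lymphatic endothelial-like cells were higher than epicardial or mesothelial-like cells, the next class, by 4.80 on the log2 scale (SE 0.51, edgeR adjusted p = 2.31e-06), in a comparison where 26.7% of genes were called. Ventricular-type cells did not differ beyond the spread from their neighbours in the order, with fibroblast-like cells higher by 0.48 (SE 0.58, adjusted p = 0.5) and endocardial-like cells lower by 0.11 (SE 0.94, adjusted p = 0.938). Under stricter cell filters the lymphatic class fell below 50 cells in a library and left the fit, and the difference between ventricular-type cells and the mean of non-myocytes was then -0.97 with an adjusted p of 0.154. In library 1 alone it was -0.41.

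Hcn2, a pore subunit of the pacemaker current, was low but steady in ventricular-type cells. These cells had 16.3 CPM (library 1) and 15.5 CPM (library 2; mean 15.9 ± 0.579, SD, n = 2 libraries), from 716 and 298 counts. Over all named non-myocytes it stood at 4.57 and 2.47 CPM, from 26 and 57 counts, so the ventricular-type level was higher in both libraries, by 3.57 times (counting interval 2.41 to 5.50) and 6.27 times (4.71 to 8.47). Atrial-type cells had 7 counts in library 1, or 16.0 CPM, and none in library 2, where the ceiling of a count of 0 was 79.1 CPM. The atrial-type over ventricular-type ratio in library 1 was 0.980 (0.393 to 2.03), and no difference was detectable at this depth. A UMI was found in 8.19% and 10.5% of ventricular-type cells, against 0.921% and 0.829% of named non-myocytes, at median depths of 4796.5 and 7391 UMIs against 1753 and 3059.5. At 1000 UMIs per cell the shares were 1.70% and 1.47%, against 0.575% and 0.147%.

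Among the tested classes endothelial-like cells were next in the order of Hcn2, at 7.79 and 2.92 CPM. Ventricular-type cells were higher than they were by 2.31 on the log2 scale (SE 0.47, edgeR adjusted p = 0.000487), in a comparison where 57.1% of genes were called. No other pair of neighbours differed beyond the spread. Schwann or glial-like cells, too few for the test, had 11.7 and 13.8 CPM from 1 and 3 counts. Lymphocyte-like cells had 35.9 CPM from 4 counts in library 1 and 3.18 CPM from 1 count in library 2.

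Hcn4, the pacemaker subunit of the sinoatrial node, was low in every class where it was counted. Ventricular-type cells had 3.48 and 1.92 CPM, from 153 and 37 counts, in 1.87% and 1.42% of cells. All named non-myocytes had 0.352 and 0.217 CPM, from 2 and 5 counts, which gives ratios of 9.91 (counting interval 2.70 to 82.5) and 8.87 (3.48 to 28.9). Atrial-type cells had 2 counts in library 1 and none in library 2, where the limit of a count of 0 was 79.1 CPM. Some other small classes with no count had high limits too, such as 41.2 CPM for smooth muscle-like cells of library 2. The ratio of atrial-type to ventricular-type cells in library 1 was 1.31 (0.157 to 4.81), which holds either direction. Hcn4 was thus counted mainly in ventricular-type cells, at a level that did not pass the filter of the test.

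Scn4b, the beta subunit gene, was nearly absent from cardiomyocytes. Ventricular-type cells had 8 counts in library 1 and 1 in library 2, or 0.182 and 0.052 CPM, and atrial-type cells had none. All kept cells together had 16 and 7 counts. Of these, 6 and 2 lay in smooth muscle-like cells, a class of 57 and 22 cells, which gives 24.9 CPM (counting interval 9.15 to 54.3) and 27.4 CPM (3.32 to 99.1). These counts came from 3 cells and 1 cell, and the class was too small for the test. Its level was the highest counted in both libraries, but limits of some small classes with no count lay above it, such as 79.1 CPM for atrial-type cells of library 2. Fibroblast-like cells, with no count, were limited to 1.34 and 0.356 CPM.

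Other sodium channel genes were read from a list, of which 11 are reported and 5 had enough counts for the test. None was higher in ventricular-type cells than in the mean of non-myocytes, 4 were lower and 1 was not called, with a median log2 difference of -2.34 against 0.05 over all genes tested. The furthest from 0 was Scn3a, a pore subunit best known from neurons, at -3.20 (edgeR adjusted p = 9.75e-10). Next were Scn7a at -2.66 (adjusted p = 3.23e-07) and Scn2a1 at -2.34 (adjusted p = 1.95e-06). Scn3a stood at 607 and 907 CPM in lymphatic endothelial-like cells, the class that also held Fgf12.

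Beside the lists, 35.7% of all genes tested were higher in ventricular-type cells and 30.3% lower. Of 11 genes for partners of the sodium channel, all were tested, 9 were higher in ventricular-type cells, none was lower and 2 were not called, with a median of 2.83. The furthest from 0 were Ank3, an anchor of sodium channels (3.87, edgeR adjusted p = 7.98e-11), Pkp2, a desmosome plaque protein (3.58, adjusted p = 1.33e-10) and Cdh2, the N-cadherin of the intercalated disc (3.56, adjusted p = 3.05e-09). Of 5 HCN partner genes 4 were tested, 1 was higher (Pex5l, which encodes an HCN-binding protein, 2.10, adjusted p = 0.00103) and 3 were lower, with Mrvi1 at -3.04 (adjusted p = 2.91e-05) and the actin-binding Flna at -1.82 (adjusted p = 7.38e-08) furthest from 0. Of 13 conduction system genes reported 10 were tested, 4 were higher, 2 were lower and 4 were not called, which is near the share over all genes. Kcnj3, a subunit of the acetylcholine-gated potassium channel, was at 3.73 (adjusted p = 6.78e-10), Tbx18, a sinoatrial and mesenchymal transcription factor, at -3.24 (adjusted p = 1.25e-07) and Cacna1g, a T-type calcium channel, at 3.05 (adjusted p = 2.3e-08). Fgf11, a further FGF homologous factor gene, was lower at -2.52 (adjusted p = 7.78e-05).

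The order of the levels over the 8 tested classes was compared between neighbours, 7 contrasts for each of the 4 members with enough counts. Of these 28 contrasts 4 passed: the lead of ventricular-type cells for Fgf13 and Hcn2, of endocardial-like over macrophage-like cells for Fgf14, and of lymphatic endothelial-like cells for Fgf12. For Fgf13 the next class after ventricular-type cells was lymphatic endothelial-like cells, at 1549 and 800 CPM, lower by 3.15 on the log2 scale (SE 0.41, edgeR adjusted p = 7.59e-06), where 49.8% of genes were called in either direction. Below these leads no neighbours differed beyond the spread between libraries.

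The genes whose log2(CPM + 1) ran most like each member over 24 sums of 12 classes were taken from 12653 genes. The sums share their libraries in groups of 12, and r is given as a description. For Fgf13 these were Kcng2 (Pearson r 0.956), Mlip (0.947) and Tnni3k (0.944). For Fgf14 they were Chrm2 (0.938), Dsg2 (0.879) and Pcdh7 (0.868), and for Fgf12 Esr2 (0.821), Ryr3 (0.804) and Pum3 (0.767). For Hcn2 they were Cox7b2 (0.788), Ppa2 (0.768) and 3425401B19Rik (0.737). Scn4b passed the limit only through 8 counts in smooth muscle-like cells, so no like genes are given for it. Hcn4 was under the level of 10 CPM needed in a class.

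A small group of ventricular-type cells stood apart in Fgf14 and Hcn4. At the finer clustering resolution of 2, with all members left out of the clustering, 97 cells of library 1 and 15 of library 2 formed a cluster led by Sema3a, Slit2 and Ephb1, genes of axon guidance. It was picked after its values were seen and carries no test and no cell type name. Fgf14 stood there at 2344 and 5548 CPM, against 568 and 825 CPM in the other ventricular-type cells. Hcn4 stood at 15.04 and 41.8 CPM, from 9 and 6 counts, against 3.31 and 1.62 CPM. Both genes were higher in the cluster in each library, which describes the cells picked and supports nothing further.

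Fgf13 did not share that pattern, at 4916 and 6378 CPM in the cluster against 5079 and 6173 CPM outside it. Hcn2 stood at 23.4 and 20.9 CPM, from 14 and 3 counts, against 16.2 and 15.4 CPM. Fgf12 stood at 6.68 and 6.97 CPM, from 4 counts and 1 count, against 1.24 and 0.679 CPM, and Scn4b had no count in the cluster. The genes of the conduction system list had also been left out of the clustering, and those named next were picked after their values were seen. Cntn2, a cell adhesion gene of Purkinje fibres, stood at 73.5 and 132 CPM, against 1.10 and 0.261 CPM. Gja5, the gap junction gene of fast conduction, stood at 26.7 and 62.7 CPM, against 1.22 and 1.25 CPM, and Etv1, a transcription factor of fast-conducting cells, at 125 and 286 CPM, against 14.7 and 25.8 CPM. Of the 13 genes of the list that are reported, 8 stood higher in the cluster in both libraries, 1 was mixed and 4 had no count in it. The counting intervals lay apart in both libraries for 4 of the genes that stood higher. The share of all genes that stood higher in both libraries was not counted, so the tally has nothing to be set against. Kcnj3 was the mixed one, at 829 and 439 CPM, against 641 and 468 CPM. Tbx3, a nodal transcription factor, gave 1 and 2 counts. Shox2, Isl1, Tbx18 and Vsnl1 had no count, and at their levels in the other ventricular-type cells a cluster of this size could not show a difference. A cluster of this kind also formed at resolution 0.5, with 50 and 13 cells and Fgf14 at 2496 and 5291 CPM, but at the resolution of 1 used for the classes these cells lay within a larger cluster.

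**Figure D3:**
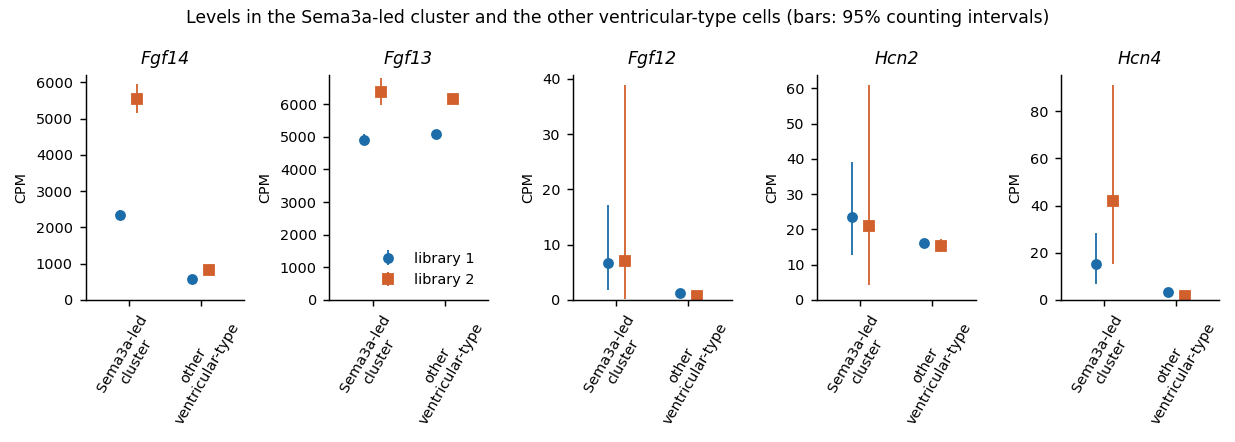
Level in CPM of the 5 members counted there in the Sema3a-led cluster (97 and 15 cells) and in the other ventricular-type cells, 1 point per library with its 95% counting interval. Fgf14 and Hcn4 stand higher in the cluster in both libraries, and Fgf13 does not.

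GFP transcripts marked some cardiomyocytes. At least 1 GFP UMI was found in 17.95% of ventricular-type cells in library 1 and 23.0% in library 2, in 9.76% and 0% of atrial-type cells, and in 0.884% and 0.972% of named non-myocytes. GFP stood at 43.3 and 43.0 CPM in ventricular-type cells, against 4.39 and 2.82 CPM in named non-myocytes. At such levels many cells with GFP RNA give no GFP UMI, so GFP-negative cells are cells in which it was not seen. Each of the 1378 GFP-positive cardiomyocytes of library 1 and 519 of library 2 was paired with the nearest unused GFP-negative cell by total UMIs, which gave medians of 6667.5 and 9808 UMIs, against 6668.5 and 9806. The match was not exact, as the largest gap within a pair was 43.3% in library 1 and 12.4% in library 2. Summed UMIs were larger in GFP-positive cells, at 11113296 against 10796037 in library 1 and 5727721 against 5590408 in library 2. Ep300 stood at 116 and 128 CPM in GFP-positive cells, against 110 and 116 CPM in GFP-negative cells, and Crebbp at 388 and 495 CPM, against 366 and 445 CPM. Neither targeted gene was called between the states (adjusted p = 0.78 and 0.696, edgeR), and whether the states differ in deletion was not tested.

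Hcn2 was lower in GFP-positive cardiomyocytes in both libraries. It stood at 12.4 CPM in GFP-positive cells, against 18.8 CPM in GFP-negative cells of library 1 (138 against 203 counts), and at 9.95 CPM, against 16.8 CPM, in library 2 (57 against 94 counts). A UMI was found in 8.85% and 9.06% of GFP-positive cells, against 12.1% and 13.9% of GFP-negative cells. The difference was -0.68 on the log2 scale (SE 0.15, edgeR adjusted p = 0.000897), -0.59 in library 1 and -0.80 in library 2. Of 12978 genes tested, 0.701% were called higher in GFP-positive cells and 2.02% lower, and Hcn2 was the 1 call among the 5 members tested. With 4 sums the fit had 1 residual degree of freedom. Without library as a block the difference was -0.69 and with DESeq2 -0.70, each with an adjusted p of 1, so the call depends on the model while the size does not.

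The Hcn2 level was also read at 3 depths, a split made after the data were seen. In library 1 GFP-positive cells stood at 14.1, 9.64 and 13.3 CPM from the low to the high depth band, against 19.2, 19.3 and 18.4 CPM in GFP-negative cells. In library 2 they stood at 9.72, 7.63 and 11.4 CPM, against 13.6, 21.1 and 15.4 CPM. The GFP-positive value was below the GFP-negative value in all 6 bands, and the counting intervals did not overlap in the middle band of either library but did in the other 4 bands. Within clusters the order was the same: 12.7 against 16.4 CPM in cluster 0 and 12.4 against 18.8 CPM in cluster 1 of library 1, and 11.0 against 35.4 CPM and 10.2 against 16.0 CPM in cluster 2 of library 1 and of library 2. The values of cluster 2 in library 1 came from 5 and 17 counts in 54 and 64 cells. The counting intervals lay apart in cluster 1 and overlapped in the others. Bands and clusters are parts of the same matched cells, so they are no separate evidence for the difference. Cells with at least 2 GFP UMIs stood at 10.7 and 11.2 CPM, from 41 and 24 counts. Cells with 1 GFP UMI stood at 13.3 and 9.19 CPM, from 97 and 33 counts. The counting intervals of these 2 groups overlapped in both libraries, so no direction is read from them. Their depths also differed, with medians of 9099.5 and 11382.5 UMIs against 5994.5 and 8834.

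**Figure D4:**
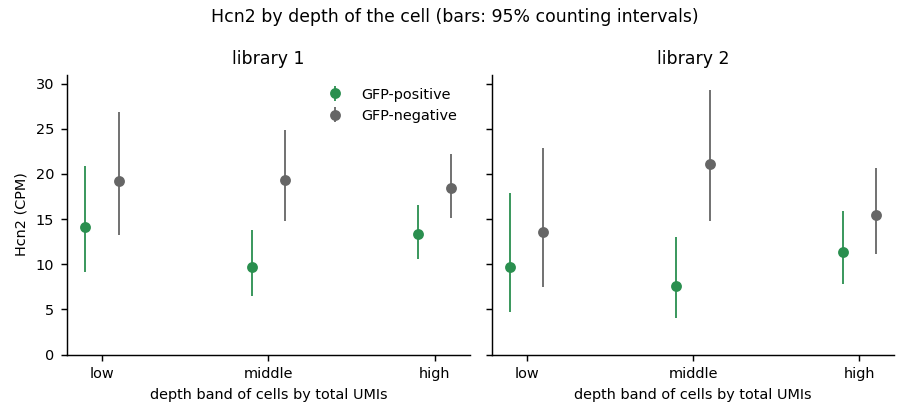
Level of Hcn2 in CPM in GFP-positive and GFP-negative cardiomyocytes, split into 3 depth bands of equal size by total UMIs, in each library. Bars are 95% counting intervals, and the GFP-positive point is the lower one in all 6 bands.

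The other members gave no call between GFP states. Fgf13 stood at 5223 and 6272 CPM in GFP-positive cells, against 5259 and 6383 CPM, a log2 difference of -0.05 (95% interval -0.19 to 0.10, edgeR adjusted p = 0.889). Fgf14 stood at 579 and 897 CPM, against 611 and 880 CPM, a difference of -0.06 (-0.19 to 0.07, adjusted p = 0.84). Neither interval reaches the size fitted for Hcn2. Hcn4 stood at 2.97 and 1.57 CPM, against 3.24 and 1.79 CPM, and its interval from -0.86 to 0.54 leaves room for larger ones (adjusted p = 0.937). Fgf12 stood at 5.76 and 0.175 CPM, against 4.26 and 0.358 CPM, with 8 atrial-type cells in each state of library 1 (difference 0.37, adjusted p = 0.766). Scn4b had 2 counts and none in GFP-positive cells, against 1 count and none, and was not tested.

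Related genes were read in the same fit. None of the 5 other sodium channel genes tested and reported was called. Of 11 sodium channel partners 1 was called, the gap junction gene Gja1, at 382 and 364 CPM, against 424 and 506 CPM (-0.34, adjusted p = 5.21e-05). Of 7 conduction system genes tested and reported 1 was called, Kcnj3, at 636 and 383 CPM, against 679 and 518 CPM (-0.29, adjusted p = 0.00162). The difference was -0.15 in library 1 and -0.53 in library 2 for Gja1, and -0.093 and -0.49 for Kcnj3. Both calls were lost without library as a block and with DESeq2, each with an adjusted p of 1, and that of Kcnj3 also against all GFP-negative cells (adjusted p = 0.0846). None of the 3 HCN partner genes tested was called.

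**Figure D5:**
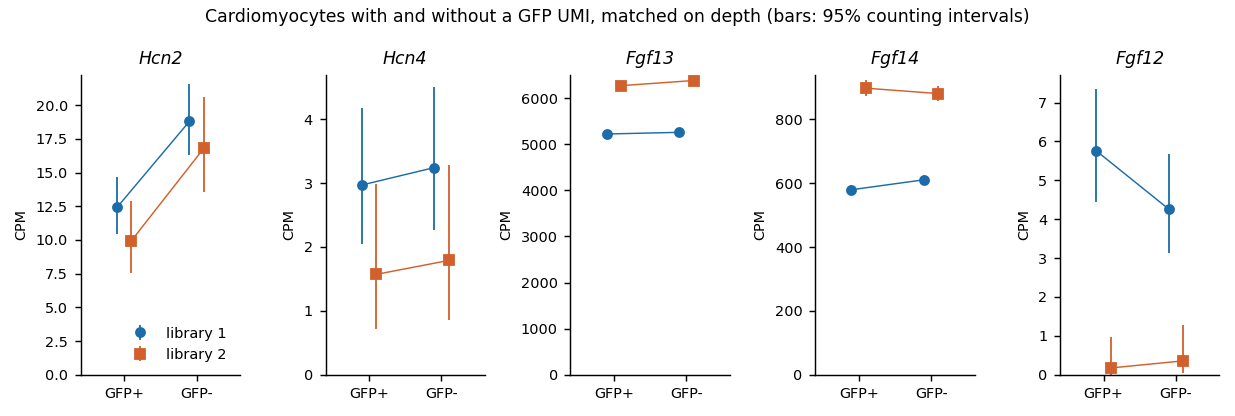
Level in CPM of 5 members in GFP-positive cardiomyocytes and depth-matched GFP-negative cardiomyocytes, with the 2 states of each library joined by a line and 95% counting intervals as bars. Hcn2 stands lower with GFP in both libraries, and Fgf13 and Fgf14 stand at like levels.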

How the data were processed

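Droplet 3′ libraries of mouse right ventricle were deposited as 1 sparse matrix of UMI counts with no normalization. Per the submitters' processing notes, fastp, Trimmomatic, Cell Ranger, Seurat and edgeR were used with GRCm38 (mm10). Barcodes were tied to the 2 libraries by the number at their end, which matches the sample titles. Cells needed at least 500 UMIs, 200 genes and at most 25% mitochondrial counts. Cells marked by a score from simulated doublets (5.42% and 6.05% of barcodes) and 7 doublet-rich clusters were removed. Cells were clustered with leidenalg 0.10.2 at resolution 1 (Python 3.11.15, 30 principal components), with 52 genes of the lists left out. Clusters were named from marker lists. UMI sums per library and class were tested in R 4.3.3 with edgeR 4.0.16 by the quasi-likelihood test, with library as a block, genes kept by filterByExpr, TMM factors and Benjamini-Hochberg adjustment over all genes, called at an adjusted p under 0.05. The block is paired by construction, since classes of a library share a suspension. Atrial-type cells, under 50 in a library, were not tested. Intervals on counts and shares are exact 95% Poisson and Clopper-Pearson intervals and cover counting error only, and the limit of a count of 0 is 3 counts. In simulated counts the class fit recovered 42%, 86.8% and 98.4% of genes changed 1.5-fold, 2-fold and 4-fold (13025 genes), and the GFP fit 20%, 72% and 95.6% (13020 genes). The members and lists were chosen with earlier results of these data known. From each related list the 3 called genes with the largest absolute log2 differences were named, and for Fgf12, Fgf13, Fgf14 and Hcn2 the 3 genes with the highest r. Scalings, filters, cell cuts, resolutions, DESeq2 1.42.0, the block and each library were varied. Depth bands, values within clusters and the Sema3a-led cluster were added after seeing the data. Some genes of the lists are not reported here, and the counts of the lists leave them out.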

Additional observations from a re-analysis of the deposited data

Results flagged for a closer look

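Both values below come from unnamed clusters that enter no comparison and, with both libraries pooled, lay above the unweighted mean over libraries of every named class. Hcn4 stood at 5.42 CPM in cluster 14, from 7 counts, all in library 1, in 306 cells, against 2.70 CPM in ventricular-type cells, the highest mean of a named class. In library 1 alone ventricular-type cells stood at 3.48 CPM, and a difference resting on 7 counts was not tested. Cluster 14 was led by hemoglobin and mitochondrial energy genes and had no name. Fgf14 stood at 1669 CPM in cluster 26, from 355 counts in 49 cells, against a mean of 1490 CPM in atrial-type cells. By library it stood at 1215 and 1748 CPM, against 869.5 and 2110 CPM, so it was above atrial-type cells in library 1 alone. That cluster was led by Lsamp, Postn and Enpp2 and was below the 50 cells needed for a name.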

How the results depend on the processing

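Of the values for the main comparisons, 171 were the same under an alternative, 3 lost the call, 17 moved and 4 changed sign. For a tested gene, the same meant its direction and side of the threshold. For a count of calls it meant a count within a set fold of the main one. For a value with no test it meant the same direction and a distance within the spread between libraries. In ventricular-type cells against non-myocytes, 4914 genes were higher and 4179 lower (54% of calls higher). Without TMM scaling these were 2604 and 7007 (27.1%), as the median of all genes moved by -0.59, and 46.3% were higher with RLE scaling, 43.4% with DESeq2 and 45.1% with doublets kept. Fgf13, Fgf14 and Hcn2 were called higher under each of these and Fgf12 lower, except under the stricter cell filter (-0.97, adjusted p = 0.154). Leaving out a library gave 3.52 to 3.78 for Hcn2 and -1.76 to -0.41 for Fgf12. Without TMM Gjc1 was at -0.10, and leaving out a library put Lrmp at -1.36 to 0.094. Keeping doublets gave 11 called neighbours in place of 4. With no low-count filter Hcn4 was called higher, by 4.84. Between GFP states 91 genes were higher and 262 lower. With no replicate block there were 0 and 0 (93 genes at an unadjusted p under 0.05), and with DESeq2 3 and 21. Cells with at least 2 GFP UMIs gave 45 and 155, and leaving out TMM gave 140 lower. Hcn2 was at -0.69 with no replicate block and -0.70 with DESeq2, each with an adjusted p of 1. Against all GFP-negative cells Fgf12 was at -0.65, Fgf13 at 0.076 and Fgf14 at 0.047. Leaving out a library gave -0.64 to 0.43 for Fgf12. For atrial-type over ventricular-type cells, Fgf13 was at -1.63 with TMM and -0.57 with the stricter cell filter, against -0.84, and Fgf14 at 0.20 with TMM, against 1.04. Fgf12 in atrial-type cells over the mean of non-myocytes was 6.22, and 4.66 to 6.87 when a library was left out. Where not named otherwise, the cause was not tested. The block, DESeq2 and the low-count filter were not varied where no test was fitted, and DESeq2 was not run for the order of classes. The counts of Hcn4 and Scn4b limit what can be said of both.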
